A study of Mus musculus with 39 samples.

Results

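Gene counts of crushed and uncrushed sciatic nerves of control mice were compared between 2 and 4 weeks post-crush (wpc), to describe how the regenerating nerve changed over this interval. All Lepr-ctrl libraries were taken, 19 of the 39 libraries of the series. They comprise 5 injured nerves at 2 wpc, 4 injured nerves at 4 wpc, 5 healthy nerves at 2 wpc and 5 healthy nerves at 4 wpc. The mice were C57BL/6 animals of both sexes, aged 2 to 4 months, with floxed Lepr alleles and no Cre, so their leptin receptor gene is intact. The nerve of 1 side was crushed at mid-thigh, and the uncrushed nerve of the other side is called healthy, although it belongs to an injured animal. RNA came from the distal endoneurium, that is, the nerve with its perineurium stripped off. It holds Schwann cells, axons without their cell bodies, macrophages, fibroblasts and vessels. The 20 Lepr-cKO libraries, from mice in which Dhh-Cre deletes Lepr in Schwann cells, entered the fit and serve below as a second set of animals on the same course.

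Each time point has its own animals, 6 for 2 wpc and 5 for 4 wpc, so time after crush and cohort are the same split. The animals are named here by WT and the number in the labels (WT-144, for example). Of their labels, only those at 4 wpc hold WT, and here it stands for Lepr-ctrl. To correct for cohort, the difference between 4 wpc and 2 wpc in healthy nerves was subtracted from that in injured nerves, and the remainder is called the corrected course. A positive value on the log2 scale means that the injured nerve rose more, or fell less, than the healthy nerve between the 2 times. An effect of crush on the healthy side that itself changes with time cannot be told apart from a cohort difference.

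After a crush, axons beyond the lesion degenerate and Schwann cells leave their myelinating state, divide and take on a repair state in which they clear debris and guide regrowing axons. Macrophages enter the nerve and take up myelin, and fibroblasts lay down matrix. Once axons return, Schwann cells stop dividing, sort the axons and build myelin again. In the study's own account, at 2 wpc regrowth is under way and remyelination is beginning, and by 4 wpc both are mostly done.

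Total counts ran from 10905806 to 45016322 per library. They were lowest in the injured nerves at 4 wpc, at 10905806 to 17640587, against 21756672 to 27752451 in the injured nerves at 2 wpc. Mitochondrially encoded genes took 2.38% ± 0.148 and 2.13% ± 0.226 of the counts (SD, n = 5 each) in healthy nerves at 2 and 4 wpc, and 14.8% ± 10.3 (SD, n = 5) and 20.2% ± 2.06 (SD, n = 4) in injured nerves. The injured nerve of WT-144 at 2 wpc stood apart, with 33% against 8.19 to 11.8% in the other 4 nerves of its group, and values without it are given beside those it moves most. Myelin genes marked the tissue as nerve, with summed levels of 122400 CPM (counts scaled to a common library size with edgeR's TMM factors) in healthy nerves at 2 wpc. The 22 tested skeletal muscle genes summed to 42.8 to 93.5 CPM in every Lepr-ctrl library. The 14 tested adipocyte genes summed to 158 to 359 CPM in healthy nerves, 92.7 to 566 CPM in injured nerves at 2 wpc and 180 to 829 CPM at 4 wpc. Their median log2 fold change of injured over healthy nerves was 7.4 at 2 wpc and 6.96 at 4 wpc. Not all injured nerves shared this rise. The mean log2 CPM of the list ran from -0.83 to 4.26 in injured nerves at 2 wpc (median -0.34). At 4 wpc it ran from -0.97 to 4.67 (median 2.23). Healthy nerves had -1.09 to -0.55 and -1.11 to -0.25, so the lowest injured nerve of each time lay within the healthy range. At each time 11 of the 14 were called higher (19.8% and 20.1% of all tested genes), and 2 were called lower at 2 wpc. The 7 tested erythrocyte genes summed to 131.2 ± 44.3 CPM in injured nerves at 2 wpc (SD, n = 5) and to 100 ± 19.9 CPM at 4 wpc (SD, n = 4). No gene of these 3 lists was called over the corrected course, but the erythrocyte list had a median of -1.76 there. In injured nerves alone its median was -2.81, and 5 of its 7 genes were called lower (4.31% of all tested genes). In bulk tissue, fewer cells of a type and less RNA per cell cannot be told apart, which holds for every value below.

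Over the corrected course, 296 genes rose and 519 fell. These are 1.61% and 2.81% of the 18442 genes tested. A gene was called at a Benjamini-Hochberg adjusted p under 0.05 in edgeR's quasi-likelihood test and an absolute log2 fold change above 1. Without the subtraction, 557 genes rose (3.02%) and 794 fell (4.31%) in injured nerves. Of the 296 and 519 genes, 203 and 379 were also called in the same direction in injured nerves without the subtraction. In 32 of the 296 and 21 of the 519, the healthy nerves moved more than the injured ones. The healthy nerves of the 2 cohorts differed in 32 genes (0.174%), of which 6 were among the genes that rose and 5 among those that fell over the corrected course. With the 2 nerves of an animal as a replicate block in edgeR, fitted on the Lepr-ctrl libraries, 588 genes rose. In that fit an animal with a single nerve, such as WT-144, adds nothing to the corrected course. Without the injured nerve of WT-123 at 2 wpc, 193 rose. With every library thinned to the smallest total, 311 fell.

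About as many of the genes that fell had been raised by the crush as not, and many that rose had been lowered by it. Of the 519 that fell, 265 had been called higher in injured than in healthy nerves at 2 wpc and 25 lower. Of the 296 that rose, 137 had been called lower at 2 wpc and 36 higher. Among all tested genes, 19.8% were called higher and 14.3% lower at 2 wpc. At 4 wpc, 60 of the 519 were still called higher than in healthy nerves, and 69 of the 296 still lower, where 20.1% and 15.9% of all tested genes were called higher and lower. The corrected course is the injury difference at 4 wpc minus that at 2 wpc, so these counts describe where the genes stood and are not a separate test.

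**Figure D1:**
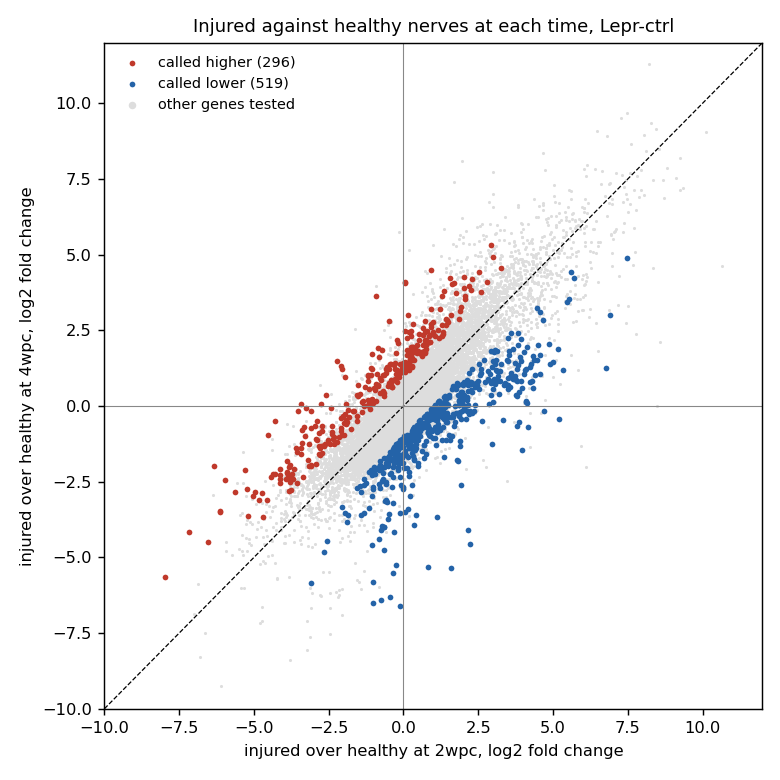
Each point is a gene, with the log2 fold change of injured over healthy Lepr-ctrl nerves at 2 wpc on the horizontal axis and at 4 wpc on the vertical axis. The 519 genes called lower lie below the dashed line of equal change, mostly at positive values at 2 wpc, and the 296 called higher lie above it.

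Most genes of the cell cycle fell. Of the 40 listed genes, which serve DNA replication, chromosome segregation and the passage through mitosis, 30 fell and none rose, against 2.81% of all tested genes that fell. The median of the list was -1.93 on the log2 scale, where the median of all tested genes was 0.01. In 34 of the 40, all 4 injured nerves at 4 wpc lay below all 5 at 2 wpc. The injured groups did not overlap in 13.8% of all tested genes. At 2 wpc, 33 of the 40 had been called higher than in healthy nerves, and at 4 wpc 8 were, which is 20% of them, where 19.8% and 20.1% of all tested genes were called higher at the 2 times. With every library thinned to the smallest total, 21 of the 40 fell.

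Top2a, which encodes the topoisomerase that untangles chromosomes before mitosis, was at 60.1, 42.0, 24.8, 32.1 and 36.3 CPM in the injured nerves at 2 wpc. At 4 wpc it was at 4.70, 5.80, 10.6 and 3.0 CPM, and healthy nerves had 2.37 ± 0.851 and 2.88 ± 1.07 CPM (SD, n = 5 each) at 2 and 4 wpc. All nerves at 4 wpc lay below those at 2 wpc, and 3 of the 4 lay above the healthy range. The corrected log2 fold change was -2.96 (standard error 0.48, edgeR adjusted p = 0.000256).

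Cdk1, the kinase that drives entry into mitosis, stood at 28.4, 18.6, 15.4, 16.2 and 15.7 CPM at 2 wpc and at 2.61, 2.93, 4.18 and 1.31 CPM at 4 wpc in injured nerves. The nerve of WT-123 was the highest of its group for Cdk1, Top2a and Mki67. The corrected change of Cdk1 was -2.87 (standard error 0.53, edgeR adjusted p = 0.000854). Mki67, the gene of the proliferation marker Ki-67, changed by -2.88 (standard error 0.56, adjusted p = 0.00124), from 18.3 to 70.5 CPM at 2 wpc to 2.35 to 10.9 CPM at 4 wpc. The spindle motor gene Kif11 changed by -2.88 and the cyclin gene Ccnf by -2.81 (edgeR adjusted p = 0.000496 and 1.64e-05). Esco2, which encodes a cohesin acetyltransferase, had the lowest value of the list, -3.74 (standard error 0.70, edgeR adjusted p = 0.000919), and was at 0 to 0.613 CPM at 4 wpc.

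The 10 genes of the list that were not called included Mcm2, Mcm3, Mcm4, Mcm6, Mcm7, Pcna and Tyms, which serve DNA replication. Of the replication helicase genes, Mcm5 fell (-1.37, edgeR adjusted p = 0.000525), while Mcm3, Mcm4, Mcm6 and Mcm7 had corrected values of -0.22, 0.03, -0.38 and -0.07. The sliding clamp gene Pcna had 0.10. At 2 wpc, injury had changed these 5 genes by -0.31 to 0.89 on the log2 scale. In contrast, Top2a, Cdk1 and Mki67 had been 4.03, 4.56 and 3.75 higher.

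The promoters of 4 of the cell cycle genes that fell, chosen after their values were seen, are shown because they hold the letters of 2 elements known from promoters of mitotic genes. These are the CCAAT box and the cell cycle homology region, here TTTGAA, each searched on both strands and set in capitals, so that ATTGG and TTCAAA mark the minus strand. Each line holds the 200 bases upstream of a RefSeq transcript start on GRCm38.p6, in the direction of the gene. They lie on the minus strand at chr11:99024190-99024389 for Top2a, chr7:135716380-135716579 for Mki67 and chr10:69352913-69353112 for Cdk1, and on the plus strand at chr19:37376182-37376381 for Kif11.
Top2a: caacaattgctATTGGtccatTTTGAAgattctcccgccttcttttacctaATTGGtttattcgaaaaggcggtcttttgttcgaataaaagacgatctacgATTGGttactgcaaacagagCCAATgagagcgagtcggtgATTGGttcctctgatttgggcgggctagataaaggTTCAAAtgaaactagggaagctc
Mki67: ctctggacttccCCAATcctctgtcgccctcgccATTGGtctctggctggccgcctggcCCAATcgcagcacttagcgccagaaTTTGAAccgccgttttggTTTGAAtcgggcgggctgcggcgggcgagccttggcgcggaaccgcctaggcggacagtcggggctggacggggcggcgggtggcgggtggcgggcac
Kif11: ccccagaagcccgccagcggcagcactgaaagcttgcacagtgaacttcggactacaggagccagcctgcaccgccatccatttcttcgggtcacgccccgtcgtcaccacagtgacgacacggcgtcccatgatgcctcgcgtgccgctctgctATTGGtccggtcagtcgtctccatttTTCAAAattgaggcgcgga
Cdk1: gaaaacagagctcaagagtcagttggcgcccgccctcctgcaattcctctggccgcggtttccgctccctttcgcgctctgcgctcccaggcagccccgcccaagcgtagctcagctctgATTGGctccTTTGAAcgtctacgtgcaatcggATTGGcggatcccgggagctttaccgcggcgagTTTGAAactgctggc
CCAAT occurred 5 times in Top2a, 3 times in Mki67, 2 times in Cdk1 and 1 time in Kif11. TTTGAA occurred 2 times in each of Top2a, Mki67 and Cdk1 and 1 time in Kif11. Among the windows of the genes of the list that fell, 24 of them with 25 windows in the table, 80% held CCAAT and 32% held TTTGAA. Among the 9 windows of 8 genes of the list that were not called, 77.8% held CCAAT and 11.1% held TTTGAA. Of all 32851 windows, 29.3% and 12.5% did, and of the 16209 windows of tested genes, 30.7% and 8.42%.

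**Figure D2:**
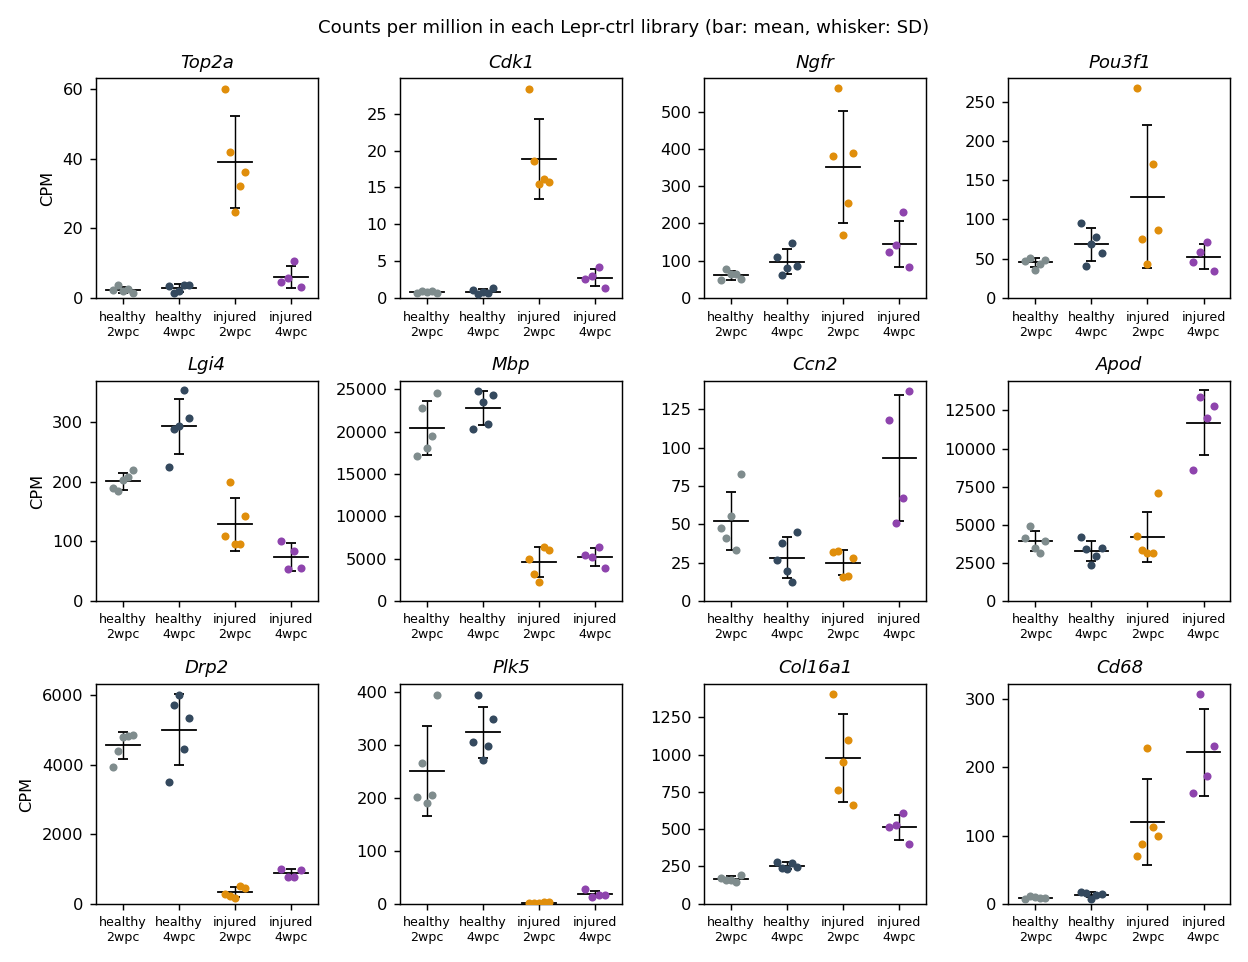
Each panel plots the CPM of 1 gene in each of the 19 Lepr-ctrl libraries, with points for nerves, a bar for the group mean and a whisker for the SD. Top2a and Cdk1 in injured nerves at 4 wpc lie below all nerves at 2 wpc, Ccn2, Apod, Drp2 and Plk5 lie above them, and Mbp overlaps between the 2 times.

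Genes of the repair state of Schwann cells fell in part. Of 24 tested members, 9 fell and none rose, with a median of -1.13, where 2.81% of all tested genes fell. Of the 9, 6 genes, Ngfr, Btc, Sox2, Sox4, Cxcl14 and L1cam, had values above healthy nerves at 2 wpc, by 0.29 to 5.52 on the log2 scale, while Ncam1, Cdh2 and Megf10 had values below them. The count of 9 became 4 without the injured nerve of WT-178 at 4 wpc and 5 without that of WT-123 at 2 wpc.

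Ngfr, the low-affinity neurotrophin receptor p75, was at 381, 563, 170, 254 and 389 CPM in injured nerves at 2 wpc and at 124, 142, 230 and 84.2 CPM at 4 wpc. The 2 groups overlapped in 1 nerve each way, with WT-144 low at 2 wpc and WT-173 high at 4 wpc. Healthy nerves had 61.1 ± 11.8 and 97.4 ± 32.8 CPM (SD, n = 5 each). The corrected change was -1.95 (standard error 0.52, edgeR adjusted p = 0.0146). Sox2, a transcription factor that holds Schwann cells back from myelinating, fell with a corrected change of -1.20, its injured nerves having 58.5 ± 14.9 CPM at 2 wpc (SD, n = 5) and 31.9 ± 9.50 CPM at 4 wpc (SD, n = 4) (adjusted p = 0.0261 in edgeR). That call was lost without WT-178 at 4 wpc or WT-123 at 2 wpc (adjusted p = 0.0576 and 0.0628). Btc, an EGF family ligand, changed by -1.99 (edgeR adjusted p = 0.0468) and was no longer called in 17 of 31 alternatives. Among them, the fit with the animal as a block gave -1.86 (limma adjusted p = 0.164).

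The other 15 repair genes were not called. Jun, the transcription factor at the head of the repair programme, was at 110 to 170 CPM at 2 wpc and 95.6 to 113 CPM at 4 wpc in injured nerves, with a corrected value of -0.54 (standard error 0.31, edgeR adjusted p = 0.279). Shh and Gdnf, a morphogen and a trophic factor that repair cells make, had -1.18 and -1.46 (adjusted p = 0.111 and 0.104 in edgeR). With the animal as a block in edgeR, Gdnf was called at -1.68 (adjusted p = 0.0127). Gap43, a growth-associated protein gene, was not called at 0.76. Of the 24 genes, 18 were called higher than in healthy nerves at 2 wpc (19.8% of all tested genes) and 14 at 4 wpc (20.1%).

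Of 20 genes for transcription factors, receptors and ligands that steer Schwann cells toward myelin, 4 fell, none rose and 16 were not called, with a list median of -0.84 and 2.81% of all tested genes falling. Pou3f1, or Oct6, which acts at the step before myelination, was at 268, 74.6, 43.7, 170.7 and 87.0 CPM at 2 wpc and at 46.2, 58.4, 71.5 and 34.5 CPM at 4 wpc. The groups overlapped in WT-144 alone at 2 wpc. Over the corrected course it had -1.88 (standard error 0.51, edgeR adjusted p = 0.0165), and -1.43 (adjusted p = 0.0644) without WT-123. Its relative Pou3f2, or Brn2, changed by -1.28, the secreted ligand gene Lgi4 by -1.36 and the neuregulin co-receptor gene Erbb2 by -1.03 (edgeR adjusted p = 0.0336, 0.0104 and 0.000854). Lgi4 had -0.81 in injured nerves, inside the fold threshold, and 0.55 in healthy nerves. The call of Pou3f2 was lost when any of 5 libraries was left out, with -1.05 (adjusted p = 0.0977) without WT-123 at 2 wpc. Egr2, the master regulator of myelin genes, did not pass at -0.22 (standard error 0.34, edgeR adjusted p = 0.741) and was at 72.9 to 201 CPM and 89.2 to 140 CPM, against 427 ± 58.7 CPM in healthy nerves at 2 wpc (SD, n = 5). The count of 4 became 1 without WT-123 at 2 wpc, and 7, 8 and 8 without the injured nerves of WT-147 and WT-144 at 2 wpc and of WT-173 at 4 wpc. It became 9 with the animal as a block in edgeR.

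**Figure D3:**
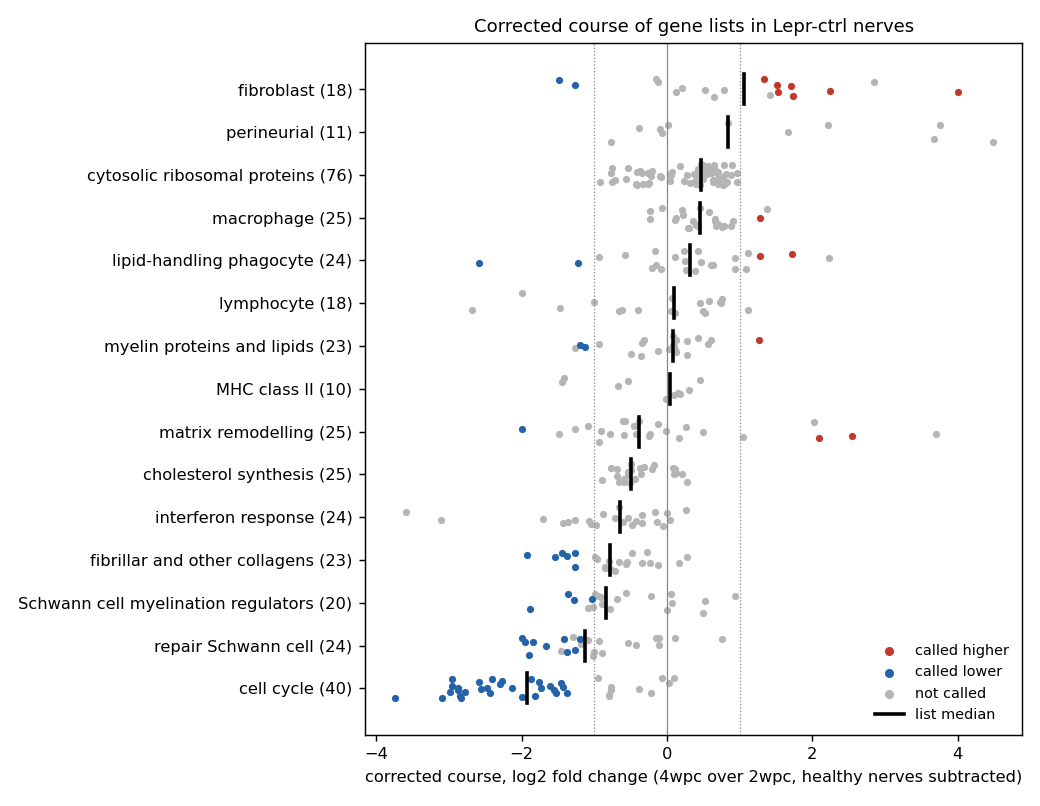
Each point is a tested gene of the list named at the left, with the number tested in parentheses, placed by its corrected course on the log2 scale. Red and blue mark genes called higher and lower, black bars mark list medians, and the cell cycle list lies farthest to the left with a median of -1.93 while the fibroblast list lies farthest to the right with 1.06.

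Myelin genes stayed low. Of 23 genes for myelin proteins and for enzymes of myelin lipids, 16 were called lower than in healthy nerves at 2 wpc. At 4 wpc 17 were, where 14.3% and 15.9% of all tested genes were called lower at the 2 times. Over the corrected course 1 rose and 2 fell, where 1.61% and 2.81% of all tested genes did. The median was 0.08, or -0.12 without WT-144. Mbp, which encodes a structural protein of compact myelin, was at 4930, 3210, 2220, 6340 and 6040 CPM in injured nerves at 2 wpc and at 5390, 5180, 6380 and 3840 CPM at 4 wpc. The 2 times overlapped, and all 9 nerves lay under the healthy means of 20400 ± 3180 and 22800 ± 2020 CPM (SD, n = 5 each). The corrected value of Mbp was 0.04 (standard error 0.37, edgeR adjusted p = 0.97), and -0.14 without WT-144. Pmp22, which encodes a further structural myelin protein, had 0.61 (adjusted p = 0.366 in edgeR).

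Drp2 was the myelin gene that rose. Its product links the Schwann cell membrane to the laminin matrix at the patches where membrane and myelin touch. It was at 290, 233, 167.7, 520 and 447 CPM at 2 wpc and at 1000, 759, 782 and 957 CPM at 4 wpc, with no overlap, against 4550 ± 394 and 5000 ± 1010 CPM in healthy nerves (SD, n = 5 each). Its corrected log2 fold change was 1.26 (standard error 0.34, edgeR adjusted p = 0.0163). Gjc3, a connexin gene, and Mag, which encodes an adhesion protein facing the axon, fell by 1.20 and 1.13 on the log2 scale (edgeR adjusted p = 0.0141 and 0.0305). The call of Mag was lost without WT-123 or WT-147 at 2 wpc or WT-178 at 4 wpc, and its value with the animal as a block in limma was -0.98, short of the fold threshold.

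None of the 25 genes of cholesterol synthesis, which supplies the main lipid of myelin, was called over the corrected course. The list median was -0.49 and 19 of 25 values were negative. In injured nerves without the subtraction, 3 of them fell, where 4.31% of all tested genes did. Sqle, the gene of squalene epoxidase, was at 30.9, 27.1, 11.4, 39.9 and 35.5 CPM at 2 wpc and at 14.1, 14.3, 20.7 and 9.29 CPM at 4 wpc in injured nerves, a difference of -0.98 (edgeR adjusted p = 0.00366) that stayed inside the fold threshold. WT-144 was the low nerve at 2 wpc. In healthy nerves Sqle was at 222 to 267 and 145 to 197 CPM at the 2 times (-0.47, adjusted p = 0.27 in edgeR), and the corrected value was -0.51 (standard error 0.32, edgeR adjusted p = 0.333), or -0.71 (adjusted p = 0.0737) without WT-144. Of the 20 genes of fatty acid synthesis, 1 fell, where 2.81% of all tested genes did. This was Srebf1, the transcription factor that controls this synthesis, at -1.32 (adjusted p = 0.00279 in edgeR). Srebf1 had -0.87 in injured nerves, inside the fold threshold, and 0.45 in healthy nerves. Fasn had -0.89 over the corrected course (adjusted p = 0.0523 in edgeR). Fasn was called at -1.04 (adjusted p = 0.0125) without WT-144, where it was lowest at 2 wpc, and at -1.13 (adjusted p = 0.00199) with the animal as a block in edgeR. The block fit likewise draws nothing from WT-144.

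Of the 19 tested genes for nodes, paranodes and contact with the axon, 2 fell, where 2.81% of all tested genes did. Kcnj10, an inward-rectifier potassium channel gene, was at 112, 49.7, 8.40, 49.2 and 62.5 CPM at 2 wpc and 10.4, 8.73, 26.3 and 7.89 CPM at 4 wpc (-2.54, standard error 0.62, edgeR adjusted p = 0.0079). WT-144 was the low nerve at 2 wpc, and without it the change was -2.82 (adjusted p = 0.000649). Cadm4, a Schwann cell adhesion gene, fell by 1.24 (edgeR adjusted p = 0.0273), a call that was lost without WT-130 at 2 wpc or WT-178 at 4 wpc.

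A part of the collagen genes fell and a part of the fibroblast genes rose. Of 23 collagen genes, 6 fell, none rose and 17 were not called, where 2.81% of all tested genes fell, with a median of -0.79 and 21 negative values. Col16a1, a fibril-associated collagen gene, was at 1410, 764, 952, 1100 and 662 CPM in injured nerves at 2 wpc and at 512, 529, 608 and 399 CPM at 4 wpc. The groups did not overlap, and at 4 wpc the level was still above the 254 ± 23.2 CPM of healthy nerves (SD, n = 5). The corrected change was -1.54 (standard error 0.25, edgeR adjusted p = 0.000322). Col11a1, Col18a1, Col5a1 and Col5a2 fell by 1.92, 1.45, 1.37 and 1.26 on the log2 scale. Col1a1, the main fibrillar collagen gene, fell by 1.27 (edgeR adjusted p = 0.0325), a call that was lost when any of 6 libraries was left out, with adjusted p-values up to 0.0763 (without WT-123 at 2 wpc). Col3a1 and Col1a2 had -0.85 and -0.79 and were not called.

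Of 18 fibroblast genes, 7 rose and 2 fell, Col1a1 and Postn, with a median of 1.06. Background was 1.61% of genes rising and 2.81% falling. Apod, which encodes a lipid-binding secreted protein, was at 4260, 3350, 3160, 3160 and 7060 CPM in injured nerves at 2 wpc and at 8620, 13400, 12000 and 12800 CPM at 4 wpc. The groups did not overlap, and healthy nerves had 3910 ± 670 and 3270 ± 679 CPM (SD, n = 5 each). On the log2 scale, the corrected change was 1.73 (standard error 0.35, edgeR adjusted p = 0.00165). Osr2, a transcription factor gene, rose by 1.51, Sox9 by 1.33, and the small proteoglycan genes Dcn and Lum by 1.70 and 1.53 (edgeR adjusted p = 0.0022, 0.0148, 0.015 and 0.0279). Part of these values came from the subtraction, since Dcn, Lum and Sox9 had 0.94, 0.76 and 0.68 in injured nerves and -0.75, -0.77 and -0.66 in healthy nerves.

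The remaining calls, Dpt and Clec3b, were the least stable of the list. Dpt, which encodes a small matrix protein, was at 23.9, 72.5, 2.95 and 2.63 CPM at 4 wpc and at 0.419 to 4.16 CPM at 2 wpc. The 14 adipocyte genes summed to 692 and 829 CPM in WT-170 and WT-171, which were high for Dpt at 4 wpc, and to 180 and 276 CPM in the other 2 nerves. At 2 wpc they summed to 566 and 412 CPM in WT-130 and WT-131, where Dpt was at 4.16 and 4.08 CPM, and to 92.7 to 240 CPM in the other 3, where it was at 0.419 to 0.953 CPM. The part of these cells in the change of Dpt was not tested. The corrected change of 4.01 (edgeR adjusted p = 0.0434) became 2.62 (adjusted p = 0.218) without WT-171, and 2.96 and 3.28 with the animal as a block (adjusted p = 0.101 in edgeR and 0.181 in limma). Clec3b went from 2.25 (adjusted p = 0.0356) to 1.59 (adjusted p = 0.165) without the same nerve, and its call was lost when any of 11 libraries was left out. In all, 4 fibroblast genes rose without the injured nerve of WT-171 at 4 wpc or of WT-147 at 2 wpc, or without a healthy nerve of WT-173 or WT-178 at 4 wpc or of WT-123 at 2 wpc. The 18 genes together summed to 5900 to 13100 CPM at 2 wpc and 11800 to 18800 CPM at 4 wpc in injured nerves. None of the 11 tested perineurial genes was called, and their summed level was 696 to 1350 CPM at 2 wpc and 760 to 868 CPM at 4 wpc. The list median was 0.84 over the corrected course, with -0.28 in injured and -0.44 in healthy nerves. Against healthy nerves, 4 of the 11 were called higher at 2 wpc and 8 at 4 wpc (19.8% and 20.1% of all tested genes), and 1 lower at each time. The member Perp was called by DESeq2 at 3.67 (adjusted p = 0.0353) and in Lepr-ctrl libraries alone at 3.7 (edgeR adjusted p = 0.0241). In injured nerves Perp overlapped between the times, at 3.80 to 24.0 CPM at 2 wpc and 6.79 to 16.1 CPM at 4 wpc. Healthy nerves had 0.886 to 17.3 CPM and 0.14 to 0.74 CPM, so these 2 calls came from the fall in healthy nerves. The part of cell numbers in these changes was not tested.

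**Figure D4:**
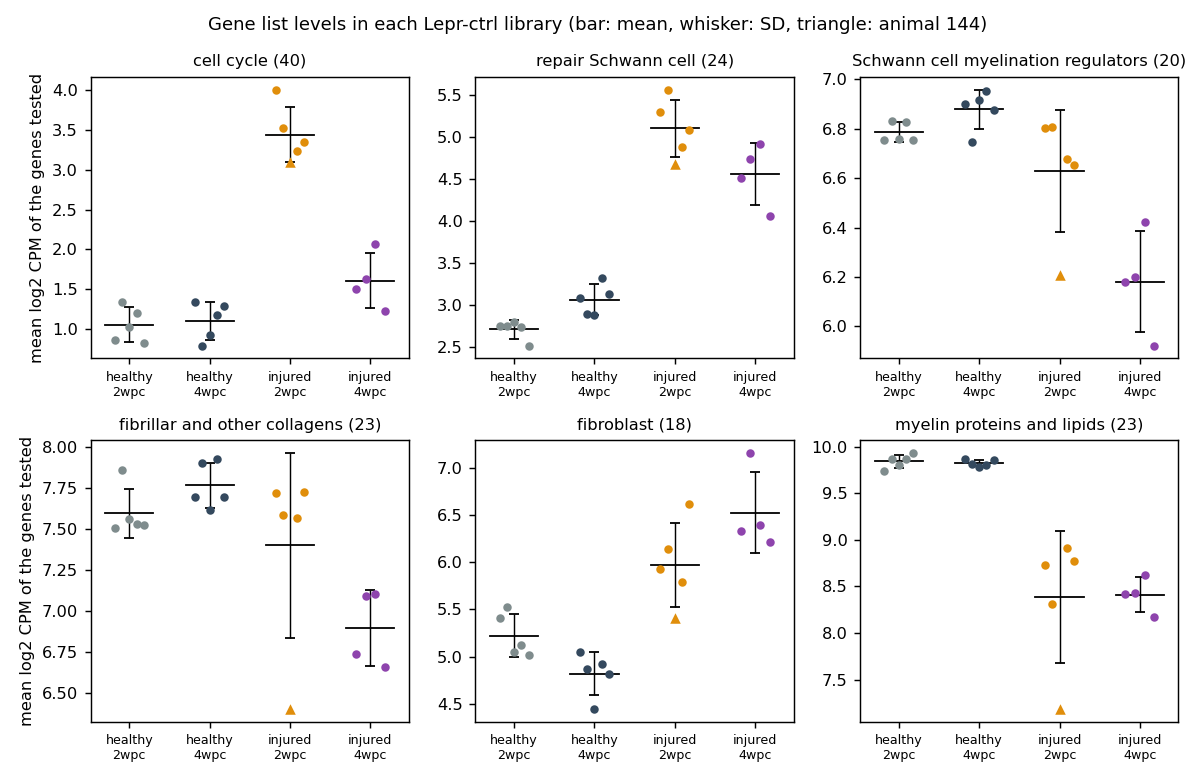
Each panel plots the mean log2 CPM over the tested genes of a list in each of the 19 Lepr-ctrl libraries, with a bar for the group mean, a whisker for the SD and a triangle for the injured nerve of WT-144 at 2 wpc. Cell cycle levels of injured nerves run from 3.09 to 4.00 at 2 wpc and from 1.23 to 2.07 at 4 wpc, while myelin levels overlap and are lowest in WT-144 at 7.19.

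Of 25 genes that act on the matrix, 2 rose and Mmp17 fell, where 1.61% and 2.81% of all tested genes did. Lox, the gene of lysyl oxidase, which cross-links collagen and elastin, was at 33.7, 59.0, 17.4, 64.4 and 95.3 CPM at 2 wpc and at 174, 154, 162 and 170.8 CPM at 4 wpc. All nerves at 4 wpc lay above those at 2 wpc and far below the healthy 836 ± 78.9 CPM (SD, n = 5). The corrected course gave 2.09 (standard error 0.43, edgeR adjusted p = 0.00201). Mmp17, a membrane-bound metalloprotease gene, fell by 2.00 (edgeR adjusted p = 0.0129).

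Ccn2, the gene of a matrix-associated growth factor also known as CTGF, was at 31.7, 32.7, 15.8, 16.3 and 28.0 CPM in injured nerves at 2 wpc and at 118, 50.5, 66.8 and 137 CPM at 4 wpc. The groups did not overlap. Healthy nerves had 51.8 ± 19 CPM at 2 wpc and 28.2 ± 13.3 CPM at 4 wpc (SD, n = 5 each), so injured nerves went from below to above their healthy counterparts. Its corrected change was 2.78 (standard error 0.55, edgeR adjusted p = 0.00148), against 1.90 (adjusted p = 0.000792) in injured nerves alone. The ligand gene Bmp4 was at 5.24 to 8.35 CPM at 2 wpc and 14.1 to 30.5 CPM at 4 wpc (2.46, standard error 0.53, edgeR adjusted p = 0.00283).

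No macrophage gene was called lower at 4 wpc than at 2 wpc. Of 25, 23 were called higher than in healthy nerves at 4 wpc (20.1% of all tested genes) and 19 at 2 wpc (19.8%). At each time 2 were called lower (15.9% and 14.3% of all tested genes at 4 and 2 wpc). Over the corrected course 1 rose (1.61% of all tested genes) and none fell (2.81%). Of the values, 22 were positive, with a median of 0.45. That median was 0.74 without WT-144 and 0.86 with the animal as a block in edgeR. Cd68, which encodes a lysosomal protein of macrophages, was at 69.4, 88.0, 229, 112 and 100 CPM at 2 wpc and at 163, 307, 187 and 231 CPM at 4 wpc, and healthy nerves had 8.78 ± 1.56 and 13.3 ± 3.45 CPM (SD, n = 5 each). WT-144 was the high nerve at 2 wpc, and without it the groups did not overlap. The corrected value of Cd68 was 0.29 (standard error 0.43, edgeR adjusted p = 0.725) with it and 0.67 (adjusted p = 0.274) without it. Cd14, a co-receptor gene for bacterial lipids, was the member that rose, from 6.31 to 10.7 CPM to 13.6 to 20.6 CPM (1.28, standard error 0.31, edgeR adjusted p = 0.00856), and it had 1.07 (adjusted p = 0.101) in thinned libraries.

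Of 24 genes of lipid-handling phagocytes, 2 rose and 2 fell, where 1.61% and 2.81% of all tested genes did. The list median was 0.32, or 0.76 with the animal as a block in edgeR. The 2 that rose, Spp1 and Pla2g7, were also the 2 members called lower than in healthy nerves at 2 wpc, both at -2.10 on the log2 scale, while 18 of the others were called higher than in healthy nerves. Spp1, or osteopontin, was at 279, 384, 305, 359 and 461 CPM at 2 wpc and at 847, 1170, 986 and 1050 CPM at 4 wpc. The groups did not overlap, and healthy nerves had more on average, 1320 ± 213 CPM at 4 wpc (SD, n = 5). The corrected change was 1.72 (standard error 0.25, edgeR adjusted p = 0.000122). Pla2g7, the gene of a lipoprotein-associated phospholipase, rose by 1.28 (adjusted p = 0.000895 in edgeR), with 0.97 in injured nerves alone. It was at 51.4 ± 13.8 CPM in injured nerves at 2 wpc (SD, n = 5) and 101 ± 27.9 CPM at 4 wpc (SD, n = 4), against 219 ± 8.11 CPM in healthy nerves at 2 wpc (SD, n = 5). Gpnmb and Trem2, which mark phagocytes loaded with lipid, had 0.25 and -0.16 (edgeR adjusted p = 0.756 and 0.871). In injured nerves before the subtraction Gpnmb was higher at 4 wpc, at 941 to 2450 CPM against 527 to 1460 CPM (1.07, edgeR adjusted p = 0.00946). Itgax, the gene of the integrin CD11c, had -2.58 (adjusted p = 0.0494). Only -0.70 of this lay in injured nerves (edgeR adjusted p = 0.367), and 1.88 came from healthy nerves, at 0.217 to 0.767 CPM at 2 wpc and 0.269 to 2.63 CPM at 4 wpc. It was no longer called in 18 of 31 alternatives and had -1.94 (adjusted p = 0.101) without WT-144. With the animal as a block it had -1.72 (adjusted p = 0.0819 in edgeR).

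Of 22 tested chemokine genes, Ccl3 and Ccl11 rose and Cxcl10 fell, where 1.61% and 2.81% of all tested genes did. Cxcl10, an attractant of T cells, was at 45.3, 86.7, 31.4, 32.9 and 44.9 CPM in injured nerves at 2 wpc and at 9.23, 10.1, 8.75 and 7.98 CPM at 4 wpc, against the 5.94 ± 6.23 CPM of healthy nerves (SD, n = 5). The corrected value came to -2.91 (standard error 0.63, edgeR adjusted p = 0.0032). Ccl3, which attracts monocytes, was at 2.09 to 4.84 CPM and 6.48 to 9.30 CPM (2.39, edgeR adjusted p = 0.019), and had 1.60 (adjusted p = 0.288) in thinned libraries. It was also lost without the healthy nerve of WT-120 (2.16, adjusted p = 0.0506). Ccl11 had 1.20 over the corrected course and 0.38 in injured nerves alone (edgeR adjusted p = 0.0192 and 0.284). None of the 10 MHC class II genes, 18 tested lymphocyte genes, 14 tested mast cell and neutrophil genes or 24 interferon response genes was called, with medians of 0.04, 0.09, 0.28 and -0.64. The interferon list had a median of -0.24 in injured and 0.43 in healthy nerves. Its mean level in healthy nerves at 4 wpc had a median of 3.11 log2 CPM, with the highest nerve at 4.73. Lymphocyte genes stayed raised, with 16 called higher than in healthy nerves at 2 wpc and 17 at 4 wpc (19.8% and 20.1% of all tested genes).

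No gene of oxidative phosphorylation was called in the fit of all 39 libraries. Of 13 mitochondrially encoded genes, 7 passed the filter, and their median was 0.57, or 1.26 without WT-144 and 1.32 with the animal as a block in edgeR. mt-Co1, a cytochrome c oxidase subunit gene, was at 19500, 22900, 91200, 26200 and 27800 CPM in injured nerves at 2 wpc and at 52200, 57800, 43400 and 55800 CPM at 4 wpc. WT-144 held the highest value, and the other 4 nerves at 2 wpc lay below all nerves at 4 wpc. The corrected value was 0.56 (standard error 0.56, edgeR adjusted p = 0.584) with WT-144 and 1.20 (adjusted p = 0.101) without it. With the animal as a block in edgeR, mt-Co1 was called at 1.22 (adjusted p = 0.00556). The block fit also draws nothing from WT-144, of which only the injured nerve was sequenced, so it is not a separate check. The 77 tested nuclear-encoded genes had a median of 0.31, and 71 of them were positive. Of 25 genes of glycolysis and lactate transport, 1 rose and 1 fell, where 1.61% and 2.81% of all tested genes did. The aldolase gene Aldoc rose by 1.83 and the enolase gene Eno2 fell by 1.14 on the log2 scale (edgeR adjusted p = 0.00371 and 0.000798). With the animal as a block in edgeR, Eno2 had -0.98, short of the fold threshold. Cytosolic ribosomal protein genes had a median of 0.47, with 56 of 76 positive and none past the fold threshold.

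Several of the genes with the largest rises, though not Ccn2 and Bmp4, were below 3 CPM in injured nerves at 2 wpc. Caln1, a calcium sensor gene, was at 0.267, 0.354, 0.38, 0.403 and 0.327 CPM at 2 wpc and at 3.92, 2.61, 3.57 and 4.13 CPM at 4 wpc, where healthy nerves had 3.35 ± 0.264 CPM (SD, n = 5). It had a corrected change of 3.50 (standard error 0.44, edgeR adjusted p = 1.64e-05), and at 4 wpc injured and healthy nerves differed by 0.08. Plk5, of the polo-like kinase family, was at 0.915 to 2.94 CPM at 2 wpc and 12.9 to 26.9 CPM at 4 wpc, against 324 ± 48.5 CPM in healthy nerves (SD, n = 5). It rose by 3.02 (standard error 0.45, edgeR adjusted p = 0.000127) and at 4 wpc had -4.15 against healthy nerves. Etnppl, a phospholipid-pathway lyase gene, and Cltrn, or collectrin, rose by 2.33 and 2.30 (edgeR adjusted p = 0.00161 and 0.00222). Ppl, or periplakin, had 2.49 (edgeR adjusted p = 0.0243), of which 1.47 was left without the injured nerve of WT-171 (adjusted p = 0.228), and it had 2.21 (adjusted p = 0.0628) with the animal as a block in limma.

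Of genes that fell outside the lists, Slc17a8, which encodes the vesicular glutamate transporter VGLUT3, went from 27.9, 11, 10.5, 20.1 and 15.2 CPM to 3.74, 4.14, 5.01 and 2.07 CPM. The corrected course gave -3.27 (standard error 0.56, edgeR adjusted p = 0.000469), and -3.05 (adjusted p = 0.0513) in thinned libraries. The glycosyltransferase gene B4galnt3 changed by -3.01 (standard error 0.45, adjusted p = 0.000122 in edgeR), from 5.84 to 14.1 CPM to 0.701 to 3.73 CPM. All nerves at 4 wpc lay below all at 2 wpc for both genes. Lepr itself, the gene at the centre of the study, was at 31.7, 65.3, 64.8, 36.3 and 68.2 CPM in injured nerves at 2 wpc and at 71.6, 38.6, 20.8 and 47.3 CPM at 4 wpc, with a corrected value of 0.24 (standard error 0.43, edgeR adjusted p = 0.778). Of the 16 genes of leptin receptor signalling, 1 fell, where 2.81% of all tested genes did. The feedback inhibitor gene Socs1 fell by 1.82 (edgeR adjusted p = 0.00215). Of this, -0.84 lay in injured nerves, which is inside the fold threshold, and 0.98 was a higher value in healthy nerves at 4 wpc (adjusted p = 0.0217 and 0.0468 in edgeR). Of 13 hedgehog genes, 1 rose, where 1.61% of all tested genes did. The inhibitor gene Hhip was called at 3.71 (edgeR adjusted p = 0.0343) from at most 1.27 CPM in any injured nerve. Without WT-171 it had 2.42 (adjusted p = 0.255 in edgeR).

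The healthy nerves show what the subtraction removes. Arntl, a core transcription factor gene of the circadian clock, was at 9.27 ± 2.46 CPM at 2 wpc and 36.5 ± 6.02 CPM at 4 wpc in healthy nerves (SD, n = 5 each), a log2 fold change of 1.97 (edgeR adjusted p = 3.19e-07). In injured nerves it went from 5.98, 3.67, 4.51, 5.35 and 7.68 CPM to 20.2, 18.5, 24.2 and 16 CPM, a change of 1.86 (edgeR adjusted p = 4.38e-07). The corrected value was -0.11. Npas2, another clock transcription factor gene, rose by 2.46 in healthy and by 1.45 in injured nerves. The immediate early genes Fosb and Egr1, which respond rapidly to stimulation, fell by 4.96 and 3.08 in healthy nerves and by 3.58 and 2.28 in injured nerves (adjusted p = 0.000131, 0.000266, 0.000715 and 0.000781 in edgeR). Perp, a perineurial gene, fell by 3.85 in healthy nerves (edgeR adjusted p = 0.0496), where WT-120 alone had 17.3 CPM at 2 wpc, and had -2.69 (adjusted p = 0.244) without it. That call was lost in 13 of 19 alternatives. The healthy count of 32 ran from 12 without the healthy nerve of WT-173 to 60 without that of WT-168 or WT-147, and was 88 by DESeq2.

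The Lepr-cKO libraries, which share no animal with these, went through the same interval. By the same contrast, 261 genes were called in Lepr-cKO nerves (1.42%), and 106 of them were called in the same direction in Lepr-ctrl nerves, which is 40.6% of the Lepr-cKO calls and 13% of the Lepr-ctrl calls. Of the 261, 7 were skeletal muscle genes, whose list had a median of -7.49 in Lepr-cKO nerves against 0.26 here. Of the 296 genes that rose in Lepr-ctrl nerves, 95.3% had the same sign in Lepr-cKO nerves and 79 were called. Of the 519 that fell, 91.1% had the same sign and 27 were called. None was called in the opposite direction, and over all tested genes 64% had the same sign. The genes were chosen by their Lepr-ctrl values, whose medians were 1.52 and -1.65, against 0.94 and -0.67 in Lepr-cKO nerves.

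**Figure D5:**
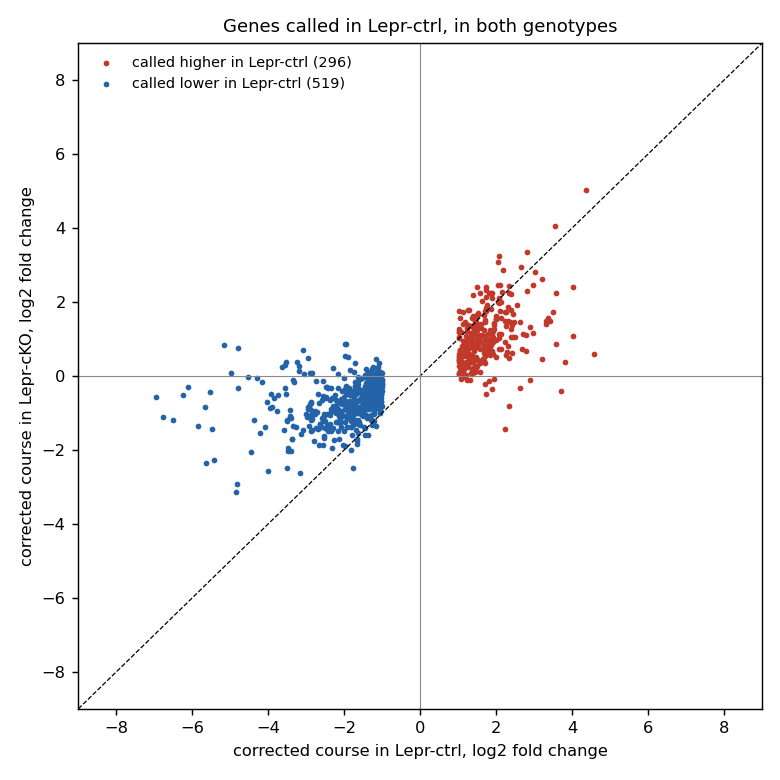
Each point is a gene called over the corrected course in Lepr-ctrl nerves, with its log2 fold change there on the horizontal axis and in Lepr-cKO nerves on the vertical axis. Most points share a sign, 95.3% of those that rose and 91.1% of those that fell, with medians of 0.94 and -0.67 in Lepr-cKO nerves, the genotype that did not choose them.

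The difference between the genotypes was tested directly, as the corrected course of Lepr-ctrl nerves minus that of Lepr-cKO nerves. No gene was called (0%) by edgeR or by DESeq2. In edgeR, 1446 of the 18442 genes tested had an unadjusted p under 0.05. Without the injured nerve of WT-173 at 4 wpc, 1 gene was called. Neither this contrast nor the Lepr-cKO course was run without the outlying injured Lepr-cKO nerve at 2 wpc. Plk5, Apod, Spp1, Drp2 and Lox had corrected values of 2.80, 1.76, 1.82, 1.77 and 2.44 in Lepr-cKO nerves and were called there too. Top2a, Cdk1 and Mki67 had -0.84, -0.74 and -1.21 in Lepr-cKO nerves, where they were not called. For Top2a, the difference between genotypes was -2.12 with a standard error of 0.66 (edgeR adjusted p = 0.575). The cell cycle list had a median of -0.87 in Lepr-cKO nerves with 1 member that fell. The myelin list had a median of 0.73 there, against 0.08 in Lepr-ctrl nerves, and for Mbp the difference between genotypes was -0.86 with a standard error of 0.52 (edgeR adjusted p = 0.64). Mitochondrially encoded genes of oxidative phosphorylation had a median of -0.89 in Lepr-cKO and 0.57 in Lepr-ctrl nerves, and nuclear-encoded ones -0.04 and 0.31. For mt-Co1 the difference between genotypes was 1.47 with a standard error of 0.79 (edgeR adjusted p = 0.631). These p-values do not show that the genotypes took the same course.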

How the data were processed

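Gene expression was measured by bulk RNA-seq in distal sciatic nerve endoneurium. The authors prepared TruSeq RNA v2 libraries, ran single-end sequencing with 50-base reads, mapped to GRCm38 using STAR 2.5, counted reads per gene with featureCounts 1.5.0-p1 and deposited these raw counts. Strand and multimapping settings are not given in the sources used here.

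All 39 libraries of 8 groups were fitted in edgeR 4.0.16 (R 4.3.3) with TMM normalization, after a filter on low counts (minimum count 10, minimum total count 15) that kept 18442 of 55573 genes. The corrected course is (injured 4 wpc minus injured 2 wpc) minus (healthy 4 wpc minus healthy 2 wpc) in Lepr-ctrl nerves. A gene was called at a Benjamini-Hochberg adjusted p under 0.05 in the quasi-likelihood test and an absolute log2 fold change above 1. Totals were 10905806 to 45016322 counts, and 1 CPM is 10.9 counts in the smallest library.

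The 19 libraries came from 11 animals. Both nerves of 8 animals were sequenced, paired by the animal number in the labels. The other 3, WT-144 among them, add nothing to the corrected course when the animal is a block in edgeR. Deviations of paired nerves from their group means correlated at -0.122 to 0.574 over 5000 genes, above 0.1 in 7 of 8 pairs. Fits with the animal as a block (edgeR in Lepr-ctrl libraries, limma 3.58.1 with duplicateCorrelation), DESeq2 1.42.0, other filters and scalings, a term for sex, each Lepr-ctrl library left out, and, chosen after seeing the data, thinned libraries and the fit without an outlying Lepr-cKO library were alternatives.

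The groups compared, the gene lists and the alternatives were chosen with earlier results of these data known. Named genes were chosen by rule. For the corrected course, the rule took the called genes with the largest changes in each direction (at most 8, and at most 3 for the healthy course), provided that their mean exceeded 1 on the log2 CPM scale and the times did not overlap, leaving out unnamed models and genes of the muscle, adipocyte and erythrocyte lists. It added at most 3 called members of each list, or else its most abundant member, and fixed genes such as Lepr, Mbp and Ngfr. A few genes that the rule names are not reported here. Genes named outside this rule were chosen after their values were seen. On simulated counts with 200 genes changed 4-fold over the corrected course, 179 were found with 7 false calls among 17970 genes. Promoter windows are RefSeq sequence on GRCm38.p6.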

Additional observations from a re-analysis of the deposited data

Results flagged for a closer look

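In 34 of 356 groups of values tested, 1 library lay apart from the others of its group by Dixon's test at the 95% level, where chance gives about 1 in 20. The injured nerve of WT-144 at 2 wpc accounted for 9 of the 34 and the healthy nerve of WT-147 at 2 wpc for 6.

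Among the healthy nerves at 2 wpc, the values that stood apart were these. WT-123 was highest for Cenpf at 1.8 CPM (others 0.445 to 0.767), Calr at 479 CPM (others from 359) and the mean level of the collagen list at 7.86 log2 CPM (others 7.50 to 7.56). WT-147 was highest for Mag at 604 CPM (others 452 to 468), Mmp17 at 61.9 CPM (others 47 to 51.1), Socs1 at 1.74 CPM (others 0.62 to 0.88), Hhip at 1.02 CPM (others 0.121 to 0.354) and Pnpla2 at 146 CPM (others 97.2 to 110). WT-147 was lowest for the mean level of the repair Schwann cell list at 2.51 log2 CPM (others 2.73 to 2.79). WT-120 was highest for Perp at 17.3 CPM (others 0.886 to 4.45). WT-120 was lowest for Clec3b at 5.16 CPM (others 13.8 to 16).

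Among the healthy nerves at 4 wpc, the values that stood apart were these. WT-173 was highest for Stat2 at 87.5 CPM (others 45 to 54.5). WT-168 was highest for Sox2 at 32.1 CPM (others 25.9 to 26.6).

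Among the injured nerves at 2 wpc, the values that stood apart were these. WT-144 was highest for the mitochondrial share of counts at 33% (others 8.19 to 11.8%), Il7r at 58.6 CPM (others 7.78 to 20.7), mt-Co1 at 91200 CPM (others 19500 to 27800), Cd68 at 229 CPM (others 69.4 to 112) and Gpnmb at 1460 CPM (others 527 to 708). WT-144 was lowest for Nr4a1 at 114 CPM (others 215 to 226), Fasn at 102 CPM (others 184 to 201), the mean level of the Schwann cell myelination regulator list at 6.21 log2 CPM (others 6.65 to 6.81) and the mean level of the collagen list at 6.40 log2 CPM (others 7.56 to 7.72). WT-130 was highest for Cxcl10 at 86.7 CPM (others 31.4 to 45.3) and Btc at 96.2 CPM (others 23.2 to 42.1). WT-123 was highest for Cdk1 at 28.4 CPM (others 15.4 to 18.6), Ccnf at 13.4 CPM (others 5.93 to 7.35) and Cenpf at 18.8 CPM (others 8.35 to 10.6). WT-131 was highest for Clec3b at 26.3 CPM (others 5.17 to 9.18) and Apod at 7060 CPM (others 3160 to 4260).

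Among the injured nerves at 4 wpc, the values that stood apart were these. WT-173 was highest for Kcnj10 at 26.3 CPM (others 7.89 to 10.4). WT-173 was lowest for the mitochondrial share of counts at 17.2% (others 20.9 to 21.6%). WT-171 was highest for Ppl at 8.35 CPM (others 1.31 to 2.44) and Fasn at 143 CPM (others 101 to 108). WT-170 was lowest for Ccl11 at 82.5 CPM (others 112 to 118).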

How the results depend on the processing

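Of the 52 named genes that were called, 34 kept their call under every alternative run and 38 whenever 1 Lepr-ctrl library was left out, and none changed sign. Depth limits the counts, since injured nerves at 4 wpc had the smallest libraries. With libraries thinned to the smallest total, 531 genes were called over the corrected course (311 lower), 517 fell in injured nerves, and the healthy count was 18 (6 higher and 12 lower). Il7r, Vwf and Arntl, none of them called, then had -0.23, 0.04 and 0.07.

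By adjusted p alone, 1678 genes passed over the corrected course (747 higher, 931 lower), 3916 in injured nerves (1893 and 2023) and 302 in healthy nerves (105 and 197), and 8 myelination regulators fell. The healthy count of 32 (21 lower) was 88 by DESeq2 (23 higher, 65 lower) and 72 in Lepr-ctrl libraries alone (59 lower), and 33 fell with at least 10 counts required in every library of a group.

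With the animal as a replicate block in edgeR, 588 genes rose and 1208 were called in all, 48.7% of them higher. The same Lepr-ctrl libraries without the block gave 870 calls, 43.9% of them higher, and the fit of all libraries gave 36.3%. With the block, 9 myelination regulators fell, and Mbp and Trem2, not called, had -0.10 and 0.27. In limma with the block, 873 genes were called and Tpsb2, not called, had -0.58. The mast cell and neutrophil list then had a median of -0.42, against 0.28 without the block. Beyond these and the genes named with the block above, it moved no count of calls by over 1.5 times.

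With each Lepr-ctrl library left out, 193 to 410 genes rose over the corrected course, 12 to 60 differed in healthy nerves (5 to 18 higher, 7 to 47 lower), and 0 to 1 differed between genotypes (0 to 1 lower). Fibroblast genes that rose numbered 4 to 8, repair genes that fell 4 to 10 and myelination regulators that fell 1 to 8. Genes near 0 changed sign without being called, Arntl at -0.28 to 0.02, Cd74 at -0.10 to 0.53, Gpnmb at -0.04 to 0.61, Il7r at -0.18 to 0.79, Lepr at -0.11 to 0.48, Mbp at -0.14 to 0.17, Trem2 at -0.39 to 0.01 and Vwf at -0.19 to 0.10. The cause of these differences was not tested.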

Other observations

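Genes of the circadian clock, a set chosen after their values were seen, differed between the cohorts. Of 17, 9 had an adjusted p under 0.05 in healthy nerves, 11 in injured nerves, and 6 in both with the same sign (edgeR), where 1.64%, 21.2% and 0.51% of all tested genes did. The repressor genes Per3 and Ciart had -0.79 and -1.50 in healthy and -1.35 and -1.35 in injured nerves, opposite to Arntl. Over the corrected course 4 of the 17 had an adjusted p under 0.05 (9.1% of all tested genes), and 2 were called, Nfil3 at -1.38 and Hlf at 1.12. The change of Nfil3 lay in the healthy nerves, at 1.48, with 0.10 in injured nerves, and with the animal as a block in edgeR its corrected value was -1.13 (adjusted p = 0.0513). Most of the change of Hlf also lay in the healthy nerves, at -0.79 (edgeR adjusted p = 0.0362), with 0.33 (adjusted p = 0.291) in injured nerves.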
